A study of Homo sapiens with 18 samples.

Results

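MGP encodes matrix Gla protein, a small secreted protein, and its mRNA was followed across the 6 groups of an RNA sequencing study of a pair of breast cancer cell lines. It is 1 of the 60656 genes counted. It was chosen from these same libraries, as the gene whose response to both drugs stood out most in ZR-75-1 over CAMA-1 by the test of the difference between the lines. Its drug responses, and the difference of those responses between the lines, are therefore described without a test. The choice did not compare one drug with the other, but that comparison uses the same drug libraries that chose the gene. It is therefore also described without a test, both within a line and between the lines.

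CAMA-1 and ZR-75-1 (CAMA1 and ZR751 in the labels) are established oestrogen receptor-positive breast cancer lines. The cells were parental and wild-type by label, were grown in full serum medium, and received abemaciclib at 500 nM, palbociclib at 500 nM or an equal volume of the solvent DMSO for 5 days. Both drugs block CDK4 and CDK6, kinases that let cells enter the cycle by phosphorylating the retinoblastoma protein Rb. Each group had 3 libraries, which the study describes as independent biological replicates of an experiment performed once.

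Matrix Gla protein belongs to the vitamin K-dependent proteins. Selected glutamates are carboxylated in the secretory pathway to Gla residues, which bind calcium, and serines are phosphorylated there. It is best known as an inhibitor of calcification in arteries and cartilage and as a binder of bone morphogenetic proteins (BMPs), and its mRNA is also made by epithelial cells of the breast.

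MGP (ENSG00000111341.10) lies on the minus strand of chromosome 12, at 14880864 to 14885857 of GRCh38, and is protein-coding. Of its 4 annotated transcripts 3 are coding, and MGP-201 has 5 exons over 694 bp, of which 384 bp are coding and 244 bp are 3′ UTR. The library kit reads mainly the 3′ end of polyadenylated transcripts. C12orf60, an uncharacterised gene on the opposite strand, overlaps the first exon of MGP over 76 bases (14885731 to 14885806), which lie 567 transcript bases from the 3′ end of MGP-201. Whether the counting used strand is not stated, and C12orf60 itself held 0 to 27 counts in a library.

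Library totals ran from 2308442 to 4146549 counts, so that the floor of 3 counts that an undetected gene allows stood far below MGP, whose lowest value was 1107 counts. Between replicates of a group, log2 normalised counts correlated at r = 0.978 to 0.984. The share of counts from the 37 mitochondrially encoded genes was 15.7% ± 0.866 (SD, n = 3) in CAMA-1 DMSO, 24.8% ± 1.37 with abemaciclib and 23.6% ± 1.15 with palbociclib. In ZR-75-1 it was 20.2% ± 2.68, 19.5% ± 1.01 and 19.0% ± 0.701. With those genes left out before scaling, MGP had log2 fold changes of -0.63 (abemaciclib) and -0.26 (palbociclib) in CAMA-1, while ZR-75-1 gave 2.23 and 3.47.

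MGP was present at a like level in both untreated lines and moved in opposite directions with the drugs. In ZR-75-1 it was higher with abemaciclib and much higher with palbociclib, and in CAMA-1 it was somewhat lower with both. Values are normalised counts (CPM), relative to the library total after TMM scaling within each line.

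In ZR-75-1, MGP stood at 769, 769 and 764 CPM in the DMSO libraries (767 ± 2.68, SD, n = 3). With abemaciclib the libraries held 3489, 3573 and 3728 CPM (3597 ± 121). With palbociclib they held 8197, 8023 and 9141 CPM (8454 ± 602). The 3 groups lay far apart, with no library of one group reaching into the range of another. Of all 11017 genes tested in ZR-75-1, 22.4% had non-overlapping groups with abemaciclib above DMSO, and 19.3% with palbociclib above DMSO.

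In CAMA-1, MGP was at 718, 751 and 747 CPM with DMSO (739 ± 17.7). The abemaciclib libraries held 507, 486 and 438 CPM (477 ± 35.5), and the palbociclib libraries 634, 597 and 615 CPM (615 ± 18.5). The groups again did not overlap, but here the order was DMSO, palbociclib, abemaciclib from the highest down. Among the 11053 genes tested in CAMA-1, 24.1% had non-overlapping groups with abemaciclib below DMSO and 23.1% with palbociclib below DMSO.

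**Figure D1:**
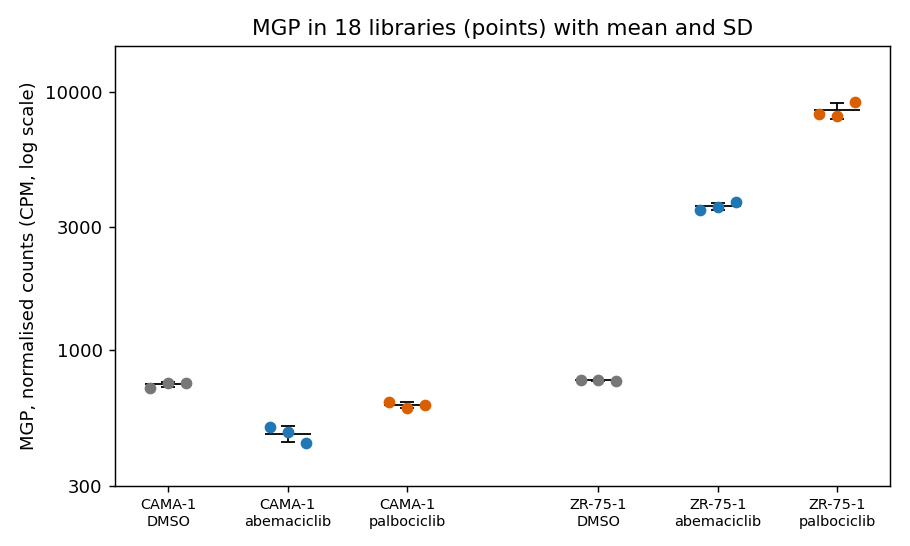
MGP in each of the 18 libraries, as CPM on a log axis, by treatment and line; points are libraries, and the horizontal marks and error bars are the mean and SD of a group (n = 3). The lines start alike with DMSO, at means of 739 and 767 CPM; the ZR-75-1 points climb to means of 3597 with abemaciclib and 8454 with palbociclib, and the CAMA-1 points lie below their DMSO level.

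As log2 fold changes against DMSO, MGP differed in ZR-75-1 by 2.23 (SE 0.07) with abemaciclib, a 4.69-fold higher level, and by 3.46 (SE 0.07) with palbociclib, 11.0-fold higher. In CAMA-1 the log2 differences were -0.63 (SE 0.06), 1.55-fold lower, and -0.26 (SE 0.06), 1.20-fold lower. The response of ZR-75-1 exceeded that of CAMA-1 by 2.83 on the log2 scale (SE 0.09) for abemaciclib and 3.70 (SE 0.09) for palbociclib, from a fit over all 18 libraries. Both drugs share the DMSO libraries of their line, so these responses are not independent of each other.

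By the p-value of the line difference MGP came 1st of 11987 genes for each drug, which is what chose it. By the size of that difference it came 58th and 26th. The next genes with a higher response in ZR-75-1 to abemaciclib were the homeobox gene IRX3, with a log2 line difference of 1.58 (SE 0.10), the somatostatin receptor gene SSTR2 with 1.94 (SE 0.12) and the growth factor-binding protein gene IGFBP5 with 1.10 (SE 0.09). For palbociclib they were IRX3 with 1.65 (SE 0.10), the hormone gene STC1 with 3.61 (SE 0.25) and SSTR2 with 1.59 (SE 0.12). MGP thus led this order with a fold close to that of STC1 and a smaller SE.

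The drugs were also compared with each other, as a description. In ZR-75-1, MGP was 2.35-fold higher with palbociclib than with abemaciclib at the same dose and time (abemaciclib minus palbociclib -1.23 on the log2 scale, SE 0.06). In CAMA-1 it was 1.29-fold higher with palbociclib (-0.37, SE 0.06). The gap between the drugs was wider in ZR-75-1, by 0.86 on the log2 scale in favour of palbociclib (ZR-75-1 minus CAMA-1 -0.86, SE 0.09). That value is the difference of the line differences for abemaciclib and palbociclib, which chose MGP, so it is described without a test. By edgeR's quasi-likelihood test, 13.2% of all genes tested differed between the drugs in ZR-75-1 and 2.33% in CAMA-1. In the gap between the drugs, 2.80% differed between the lines. Of all genes, 15.1% in ZR-75-1 and 9.43% in CAMA-1 had non-overlapping groups with palbociclib above abemaciclib.

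Across lines, where each level is taken as an unscaled share of all counts of a library, ZR-75-1 with palbociclib stood highest at 0.845% ± 0.0630 (SD, n = 3) and ZR-75-1 with abemaciclib next at 0.360% ± 0.00884. CAMA-1 DMSO at 0.0779% ± 0.00295 and ZR-75-1 DMSO at 0.0768% ± 0.00363 followed and overlapped. CAMA-1 with palbociclib at 0.0604% ± 0.00282 and with abemaciclib at 0.0462% ± 0.00397 came last. Apart from the DMSO groups, no neighbours in this order of shares overlapped. For neighbours from different lines, the share of all genes without overlap was not computed.

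With the drugs MGP was one of the most counted genes in ZR-75-1. With palbociclib it ranked 9th by counts in each of the 3 libraries, and 1st once the mitochondrially encoded genes are set aside. With abemaciclib it ranked 19th to 24th, against 145th to 149th with DMSO. These ranks compare counts of 3′ ends and carry no correction for length. Among all 11017 genes tested in ZR-75-1, MGP had the 21st highest log2 fold change with palbociclib and the 75th highest with abemaciclib. Among only the 1591 genes with at least 100 CPM in ZR-75-1 DMSO, it came 1st and 3rd. Of these 1591 genes, 18 and 24 were at least 2-fold higher. The responses behind these ranks chose the gene, so the ranks are a description. A bulk library cannot tell a higher level in every cell from a larger share of cells that express the gene.

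Cell markers showed luminal epithelial expression in both lines, and were not chosen to tell the lines apart. The summed level of 7 luminal epithelial genes (ESR1, GATA3, FOXA1, KRT8, KRT18, KRT19, EPCAM) ran from 4783 to 6769 CPM over the 18 libraries, with none at 0. In ZR-75-1 it was 5302 to 5509 CPM with DMSO, 6125 to 6325 with abemaciclib and 4784 to 5113 with palbociclib. In CAMA-1 it was 4783 to 5120 CPM with DMSO, 6430 to 6471 with abemaciclib and 6683 to 6769 with palbociclib. Markers of cell types that make MGP in tissue were low. Of 7 fibroblast markers, DCN, COL1A2, PDGFRB and FAP had 0 counts in every library, and the summed level was 14.9 to 33.0 CPM, with ZR-75-1 at 19.5 to 28.0 in DMSO, 23.2 to 33.0 with abemaciclib and 24.3 to 29.9 with palbociclib. The summed endothelial level was at most 1.39 CPM (CDH5 and KDR at 0 in all) and the chondrocyte level at most 0.639 CPM (ACAN and COMP at 0 in all). The 4 smooth muscle markers, none of them at 0 in every library, summed in ZR-75-1 to 4.72 to 11.8 CPM with DMSO, 0.644 to 2.30 with abemaciclib and 2.46 to 5.26 with palbociclib. In CAMA-1 the DMSO libraries were the lowest, at 1.42 to 3.64 CPM with DMSO, 7.98 to 11.0 with abemaciclib and 5.11 to 5.87 with palbociclib. Their part in the MGP levels was not tested.

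The cycling markers MKI67, CCNA2 and TOP2A moved with the treatment too. Their summed level in ZR-75-1 was 1972 to 2041 CPM with DMSO, 88.2 to 104 with abemaciclib and 796 to 831 with palbociclib. Abemaciclib had fewer cycling transcripts and less MGP than palbociclib there, while DMSO had the most cycling transcripts and the least MGP. In CAMA-1 the summed level was 2099 to 2300, 359 to 391 and 534 to 560 CPM. The order of the groups in CAMA-1 was the same as for MGP. The part of cell cycle exit in the MGP levels was not tested.

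MGP is flanked by genes that were mostly silent in these lines. The annotation places 25 other genes with their start within 500 kb of the MGP start, of which 24 have a row in the count table and 7 had a mean of at least 10 counts. GUCY2C, SMCO3, ART4 and PDE6H had 0 counts in every library. Of the 8 flanking genes tested in ZR-75-1, 4 rose and 1 fell with abemaciclib (median log2 fold change 0.35), where 17.9% of all genes rose and 18.3% fell. Of these, the rise of ERP27 was lost without DMSO replicate 3 or abemaciclib replicate 1 (adjusted p = 0.10 and 0.057), and the fall of H2AJ without DMSO replicate 1 or abemaciclib replicate 1 or 3 (adjusted p 0.097 to 0.21), with no filter on low counts or with DESeq2 (adjusted p = 0.052 for each). With palbociclib 4 rose and none fell (median 0.41, against 14.5% and 13.4% of all genes). In CAMA-1, 3 of 6 rose and 2 fell with abemaciclib (20.3% and 20.1% of all genes), the rise of PLBD1 being lost without DMSO replicate 1 or abemaciclib replicate 1 or 3 (adjusted p 0.05 to 0.15), and 2 rose and 2 fell with palbociclib (18.4% and 18.7%). The medians over all genes were between -0.01 and 0.01.

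ARHGDIB, which encodes a dissociation inhibitor of small GTPases and starts 75.9 kb from MGP, was the neighbour with the largest rise in ZR-75-1. It held 84.7 to 89.0 CPM with DMSO, 171 to 197 with abemaciclib and 208 to 227 with palbociclib. By edgeR it rose on the log2 scale by 1.08 with abemaciclib (SE 0.09, adjusted p = 2.8e-15) and by 1.33 with palbociclib (SE 0.09, adjusted p = 8.6e-19). In CAMA-1 it held at most 2.88 CPM and was not tested. Its groups in ZR-75-1 followed the same order as MGP, with a much smaller span; the drugs differed by -0.26 (adjusted p = 0.025), a call lost without abemaciclib replicate 1 or 2 or palbociclib replicate 1 or 3 (adjusted p 0.067 to 0.18), with DESeq2 (adjusted p = 0.06), with upper-quartile scaling (adjusted p = 0.055) and with no filter on low counts (adjusted p = 0.053).

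RERG, named as a Ras-related growth inhibitor regulated by oestrogen, starts 463 kb away. In ZR-75-1 it held 38.6 to 45.8 CPM with DMSO, 58.9 to 72.8 with abemaciclib and 89.5 to 96.2 with palbociclib. It rose by 0.66 (SE 0.12, adjusted p = 1.2e-05) and 1.16 (SE 0.12, adjusted p = 4.6e-12), and stood higher with palbociclib than with abemaciclib (-0.50, SE 0.11, adjusted p = 7.6e-04). In CAMA-1 its log2 differences were -0.23 (adjusted p = 0.64) and 0.31 (adjusted p = 0.50).

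WBP11, a splicing factor gene, had the same directions as MGP in each line, with small changes. It rose in ZR-75-1 by 0.33 and 0.38 (adjusted p = 5.8e-04 and 1.0e-04) and fell in CAMA-1 by 0.38 and 0.32 (adjusted p = 0.0062 and 0.020). The latter call was lost without palbociclib replicate 1 (adjusted p = 0.14) and with no filter on low counts (adjusted p = 0.053). Its levels with the drugs differed by -0.05 in ZR-75-1 (adjusted p = 0.74). The other neighbours followed MGP in part or not at all. ERP27, an endoplasmic reticulum chaperone gene 52.7 kb away, rose in CAMA-1 by 1.96 and 1.88 (adjusted p = 4.0e-05 and 7.4e-05), as did ENSG00000261324 by 2.37 and 1.26 (adjusted p = 1.8e-08 and 0.0021). H2AJ, a histone gene with near-identical copies whose reads are uncertain, fell in CAMA-1 by 0.72 and 0.80 (adjusted p = 7.3e-04 and 1.9e-04) and rose with palbociclib in ZR-75-1 by 0.45 (adjusted p = 2.6e-05). With abemaciclib in ZR-75-1 its log2 difference was -0.245 (adjusted p = 0.023), the unstable call given above. The drugs differed there by -0.69 (adjusted p = 7.1e-09), in the same direction as for MGP. The region held both genes that rose in ZR-75-1 and genes that moved otherwise.

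**Figure D2:**
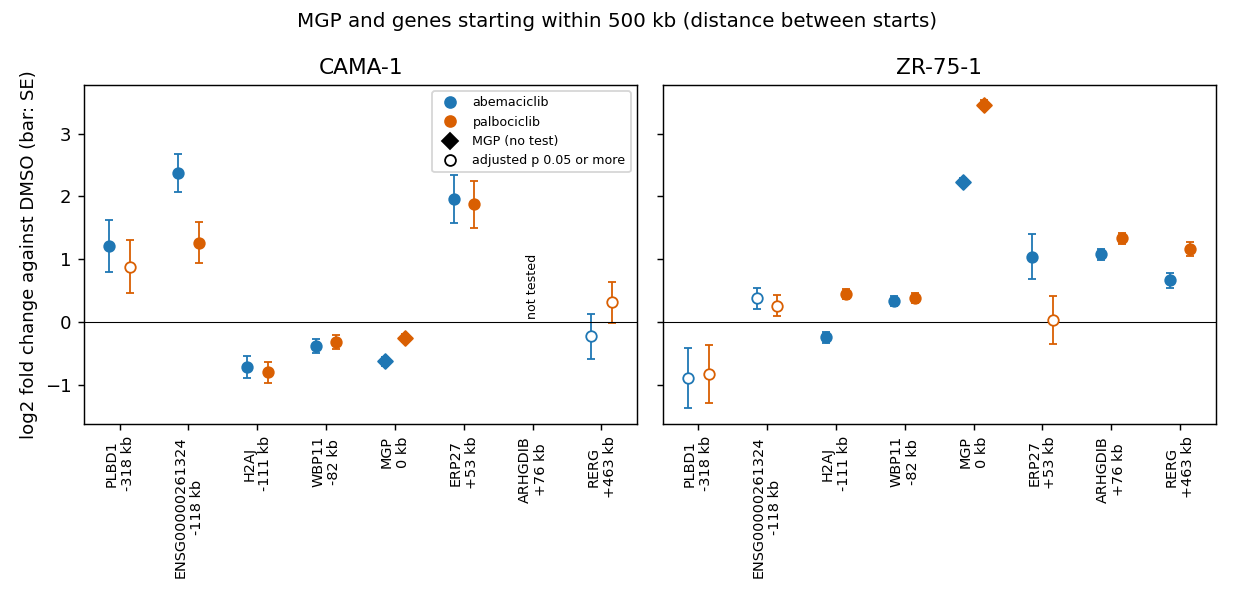
Log2 fold change against DMSO (y axis, bars are SE) of MGP (diamonds) and the neighbours averaging 10 counts or more, in genomic order with the distance from the MGP start in kb (x axis), for each line and drug; filled circles passed the test. In ZR-75-1, MGP at 2.23 and 3.46 stands above ARHGDIB at 1.08 and 1.33 and RERG at 0.66 and 1.16; in CAMA-1, MGP lies below 0 and ERP27 at 1.96 and 1.88 above it.

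A set of 7 genes acts on Gla proteins as they mature, by carboxylation, vitamin K recycling or phosphorylation. With palbociclib in ZR-75-1, where MGP was highest, 4 of 6 tested rose and none fell (median log2 fold change 0.34), where 14.5% of all genes rose and 13.4% fell. With abemaciclib 2 rose and 2 fell (median 0.18), where 17.9% and 18.3% of all genes did. There the rise of VKORC1L1 was lost without DMSO replicate 1 or 3, abemaciclib replicate 1 or 2 or palbociclib replicate 2 (adjusted p 0.051 to 0.21), with no filter (adjusted p = 0.056) or with DESeq2 (adjusted p = 0.098). The fall of AIFM2, a vitamin K reductase gene, was lost without DMSO replicate 3 or abemaciclib replicate 2 or 3 (adjusted p 0.079 to 0.28) or with DESeq2 (adjusted p = 0.061). In CAMA-1 none rose and 3 fell with each drug (medians -0.44 and -0.45), where 20.3% of all genes rose and 20.1% fell with abemaciclib and 18.4% and 18.7% with palbociclib. In the fit of the line difference, 2 of 7 had a higher response in ZR-75-1 to abemaciclib and 4 of 7 to palbociclib, where 8.19% and 10.0% of all genes did. In either direction, 18.2% and 20.3% of all genes differed between the lines in these responses.

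VKORC1 encodes the reductase that recycles vitamin K and is the target of warfarin. It held 136 to 147 CPM in ZR-75-1 DMSO, 144 to 171 with abemaciclib and 165 to 202 with palbociclib, and rose with palbociclib by 0.36 (SE 0.09, adjusted p = 8.9e-04). In CAMA-1 it held 88.9 to 98.6 CPM with DMSO, 50.0 to 55.3 with abemaciclib and 53.2 to 64.9 with palbociclib, and fell by 0.83 and 0.69 (adjusted p = 6.6e-08 and 1.6e-06). Like MGP, it was lower with both drugs in CAMA-1. Its paralogue VKORC1L1 rose with palbociclib in ZR-75-1 by 0.49 (SE 0.13, adjusted p = 0.0034).

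NQO1, a quinone reductase that can reduce vitamin K, differed between the drugs in both lines. It held 326 to 354 CPM in CAMA-1 DMSO, 119 to 140 with abemaciclib and 202 to 216 with palbociclib. In ZR-75-1 it held 116 to 129, 80.2 to 101 and 148 to 157 CPM. Palbociclib libraries stood above abemaciclib libraries in each line (abemaciclib minus palbociclib -0.67, adjusted p = 2.0e-07, for CAMA-1; -0.75, adjusted p = 1.0e-08, for ZR-75-1), as they did for MGP. Against DMSO, NQO1 fell in CAMA-1 by 1.38 and 0.71 (adjusted p = 1.8e-18 and 1.8e-10), fell in ZR-75-1 with abemaciclib by 0.43 (adjusted p = 2.7e-04) and rose there with palbociclib by 0.32 (adjusted p = 0.0046).

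GGCX, the carboxylase itself, rose in ZR-75-1 by 0.41 and 0.45 (adjusted p = 0.035 and 0.024). Each of those calls was lost without DMSO replicate 1 or 2, and also without DMSO replicate 3 or abemaciclib replicate 2 for abemaciclib and palbociclib replicate 2 or 3 for palbociclib (4 of 9 libraries for each drug; adjusted p up to 0.21 and 0.12), with DESeq2 (adjusted p = 0.067 and 0.059) and, for abemaciclib, with no filter (adjusted p = 0.057). FAM20C, a kinase of secreted proteins, fell in CAMA-1 by 0.87 and 0.70 (adjusted p = 0.0086 and 0.031), calls that did not hold once DMSO replicate 3 was dropped (adjusted p = 0.057 and 0.15), nor without abemaciclib replicate 3 (adjusted p = 0.066) or palbociclib replicate 1 or 2 (adjusted p = 0.14 and 0.19), and for palbociclib not with DESeq2 (adjusted p = 0.076). In ZR-75-1 it held at most 0.958 CPM. The carboxylation genes were expressed in both lines, and the genes of this list that rose did so in ZR-75-1. With abemaciclib there, 2 of 6 tested rose and 2 fell (17.9% and 18.3% of all genes). Their part in the MGP levels was not tested.

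The other proteins of its class were mostly not expressed. Of 14 other genes for Gla proteins, F2, F9, F10, BGLAP and UCMA had 0 counts in every library and 5 could be tested in CAMA-1 and 4 in ZR-75-1. PRRG1, which encodes a transmembrane Gla protein, rose in ZR-75-1 with abemaciclib by 0.82 (SE 0.22, adjusted p = 0.0019) and differed with palbociclib by 0.15 (adjusted p = 0.67), the reverse order of MGP. In CAMA-1 it rose with abemaciclib by 0.83 (adjusted p = 0.021), a call lost without DMSO replicate 1 or 2 or abemaciclib replicate 1 or 3 (adjusted p 0.068 to 0.11). PRRG2, of the same family, rose in ZR-75-1 with abemaciclib by 0.83 (adjusted p = 0.025), lost without DMSO replicate 2 or abemaciclib replicate 3 (adjusted p = 0.086 and 0.32). PRRG4, another transmembrane Gla protein, fell in CAMA-1 with abemaciclib by 0.55 (SE 0.15, adjusted p = 0.0031). With palbociclib it fell by 0.41 in CAMA-1 and by 0.38 in ZR-75-1 (adjusted p = 0.025 and 0.022). The CAMA-1 call was lost without DMSO replicate 3 or palbociclib replicate 1 or 3 (adjusted p 0.077 to 0.11), the ZR-75-1 call without DMSO replicate 1 or 2 or palbociclib replicate 2 or 3 (adjusted p 0.052 to 0.10), and both with DESeq2 (adjusted p = 0.069 and 0.055). GAS6, a ligand of the TAM receptors, did not pass the test against DMSO (log2 differences 0.68 and 0.46 in CAMA-1, -0.66 and -0.75 in ZR-75-1, adjusted p 0.12 to 0.32).

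The BMP pathway, whose ligands MGP binds, moved differently in the lines. Of the ligand genes, BMP4 fell in CAMA-1 from a mean of 141 CPM to 84.4 with abemaciclib and 72.7 with palbociclib (-0.74 and -0.95, adjusted p = 2.8e-07 and 9.5e-10). In ZR-75-1 it went from 30.9 to 46.2 CPM with abemaciclib (0.58, SE 0.16, adjusted p = 0.0032) and to 23.9 with palbociclib (-0.36, SE 0.17, adjusted p = 0.11). The drugs differed in ZR-75-1 by 0.94 (SE 0.16, adjusted p = 2.1e-05), with BMP4 higher and MGP lower with abemaciclib. Against DMSO, both were lower with each drug in CAMA-1 and higher with abemaciclib in ZR-75-1. BMP7 rose in CAMA-1 from at most 1.89 CPM to 12.3 to 15.4 with abemaciclib and 6.56 to 7.30 with palbociclib (adjusted p = 4.1e-09 and 2.4e-05), and lay at most at 1.91 CPM in ZR-75-1.

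Among receptor and SMAD genes, 4 of 6 tested rose in CAMA-1 with each drug and none fell (medians 0.42 and 0.37), where 20.3% of all genes rose with abemaciclib and 18.4% with palbociclib. The calls of ACVR1 were lost without DMSO replicate 3 (adjusted p = 0.17 and 0.079) or, for abemaciclib, abemaciclib replicate 2 (adjusted p = 0.10). Those of SMAD1 did not hold when DMSO replicate 2 was dropped (adjusted p = 0.052 and 0.099), nor, for abemaciclib, when abemaciclib replicate 3 was (adjusted p = 0.11), and without any single library of the DMSO or palbociclib group for palbociclib (adjusted p 0.053 to 0.10), which was also lost with no filter or with DESeq2 (adjusted p = 0.073 and 0.078). BMPR2, the type II receptor, rose there by 1.29 and 1.02 (adjusted p = 1.3e-13 and 1.5e-10), and SMAD5, a signal transducer, by 0.37 and 0.33 (adjusted p = 3.7e-04 and 0.0012). In ZR-75-1, none of 7 rose with either drug (medians -0.15 and -0.05), where 17.9% and 14.5% of all genes did, and 1 fell. That was SMAD4, the shared SMAD, with abemaciclib (-0.40, adjusted p = 0.042), a call lost without DMSO replicate 1 or 3 or any abemaciclib library (adjusted p 0.074 to 0.13), with no filter (adjusted p = 0.099) or with DESeq2 (adjusted p = 0.088). BMPR2 differed in ZR-75-1 by -0.16 (SE 0.13) and -0.05 (SE 0.13). Of the inhibitors of the pathway, the pseudoreceptor gene BAMBI fell with abemaciclib in ZR-75-1 by 0.95 (SE 0.21, adjusted p = 2.4e-04) and rose with palbociclib in CAMA-1 by 1.47 (SE 0.42, adjusted p = 0.0051), the latter lost without DMSO replicate 3 (adjusted p = 0.053). TWSG1, a BMP-binding protein gene, fell in ZR-75-1 by 0.53 and 0.50 (adjusted p = 0.019 and 0.032). The abemaciclib call was lost without DMSO replicate 1 or 2 or abemaciclib replicate 2 (adjusted p 0.06 to 0.096). The palbociclib call was lost without DMSO replicate 1 or 2 or palbociclib replicate 1 or 2 (adjusted p 0.067 to 0.13), with no filter (adjusted p = 0.071) or with DESeq2 (adjusted p = 0.065). The part of the BMP pathway genes in the MGP levels was not tested.

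The ID genes, direct targets of BMP signalling, did not move as a group. ID3 rose in CAMA-1 by 0.97 and 0.94 (adjusted p = 4.0e-13 and 9.1e-13) and in ZR-75-1 with abemaciclib by 0.60 (adjusted p = 3.9e-06). ID1 rose in ZR-75-1 with abemaciclib by 0.85 (SE 0.14, adjusted p = 1.1e-06) and differed with palbociclib by -0.06 (SE 0.15, adjusted p = 0.81). In CAMA-1 it rose by 0.57 with abemaciclib (adjusted p = 1.1e-04) and by 0.39 with palbociclib (adjusted p = 0.0064). The palbociclib call was lost without palbociclib replicate 1 (adjusted p = 0.076). ID2 fell in all 4 comparisons, by 0.86 and 1.13 in CAMA-1 and, more, by 1.72 and 1.70 in ZR-75-1 (adjusted p from 6.2e-15 to 2.2e-11). With palbociclib in ZR-75-1, 0 of the 3 ID genes tested rose and 1 fell, where 14.5% of all genes rose and 13.4% fell. The part of these genes in the MGP levels was not tested.

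Of 7 other genes known from mineralization, only ENPP1 could be tested in ZR-75-1 and only ANKH in CAMA-1. ENPP1, which makes the calcification inhibitor pyrophosphate, fell in ZR-75-1 with abemaciclib by 1.59 (SE 0.40, adjusted p = 0.0011). SPP1 and TNFRSF11B had 0 counts in every library.

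Steroid and retinoid receptors are among the regulators of MGP known from other systems. ESR1, the oestrogen receptor gene, rose in all 4 comparisons, by 0.86 and 0.91 in CAMA-1, and by 0.96 and 0.77 in ZR-75-1 (adjusted p from 3.9e-15 to 2.8e-07). The part of ESR1 and the other receptors in the MGP levels was not tested. PGR, the progesterone receptor gene and an oestrogen target, was at 238 CPM in ZR-75-1 DMSO, 243 with abemaciclib and 379 with palbociclib; it rose with palbociclib by 0.67 (SE 0.07, adjusted p = 1.2e-10), and the drugs differed (-0.64, SE 0.07, adjusted p = 1.4e-09) in the same direction as for MGP. In CAMA-1 it rose by 1.02 and 1.08 (adjusted p = 4.6e-05 and 1.7e-05). NR3C1, the glucocorticoid receptor gene, fell in CAMA-1 by 0.75 and 0.78 (adjusted p = 4.8e-05 and 2.3e-05), with differences of 0.30 and 0.16 in ZR-75-1 (adjusted p = 0.17 and 0.52). Of the retinoid receptor genes, RARA rose in CAMA-1 with abemaciclib by 0.52 (SE 0.09, adjusted p = 1.4e-05). RXRA fell in CAMA-1 with palbociclib by 0.32 (adjusted p = 0.0048), lost without DMSO replicate 3 (adjusted p = 0.11). RARG rose in ZR-75-1 with abemaciclib by 0.78 (adjusted p = 0.044), lost without DMSO replicate 1 or 2 or any abemaciclib library (adjusted p 0.053 to 0.22), with no filter (adjusted p = 0.062) or with DESeq2 (adjusted p = 0.074). VDR, the vitamin D receptor gene, was not called in any comparison within a line (adjusted p 0.43 to 0.89).

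**Figure D3:**
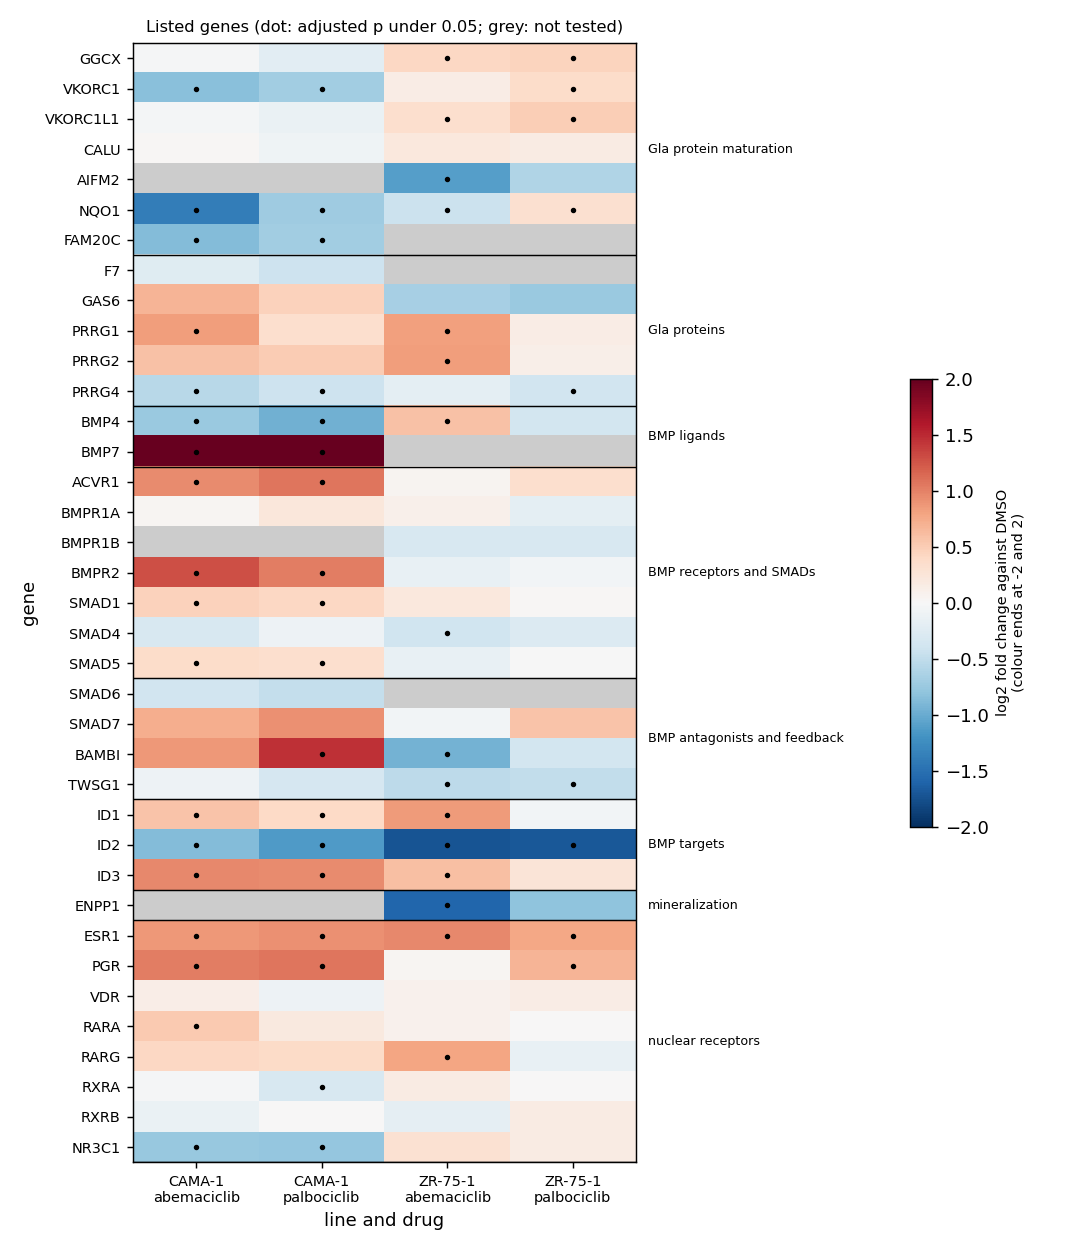
Heat map of the log2 fold change against DMSO (colour, ending at -2 and 2) of the listed genes averaging 10 counts or more (rows, by list), for each line and drug (columns); a dot marks an adjusted p under 0.05 and grey a gene not tested. VKORC1 and NQO1 are blue in both CAMA-1 columns, the BMP receptor and SMAD rows are red mainly in CAMA-1, and ESR1 is red in all 4 columns.

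Over all 8 lists, 64 genes in number, 33 were tested in ZR-75-1, of which 9 rose and 7 fell with abemaciclib and 6 rose and 3 fell with palbociclib. In CAMA-1, 11 of 36 rose and 7 fell with abemaciclib, and 10 rose and 8 fell with palbociclib. Of all genes, 17.9% rose and 18.3% fell with abemaciclib in ZR-75-1, and 14.5% and 13.4% with palbociclib. In CAMA-1 these shares were 20.3% and 20.1%, then 18.4% and 18.7%. The median log2 fold change of the listed genes was 0.09 with abemaciclib and 0.01 with palbociclib in ZR-75-1, against 0.10 and 0.13 for CAMA-1. Between the drugs, 5 listed genes were higher with abemaciclib and 2 with palbociclib in ZR-75-1 (5.23% and 7.94% of all genes), and NQO1 alone was called in CAMA-1.

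The genes whose pattern was most like that of MGP were found by Pearson's r of log2 CPM over the 18 libraries, among 10670 genes. The libraries share line, drug and depth, so r is a description. The 8 closest were GOLPH3 (r = 0.956), SSR3 (0.955), BRAT1 (0.955), CD63 (0.946), CDIPT (0.946), CRELD2 (0.946), BPIFB1 (0.945) and APOD (0.944). Over all genes the median r was -0.04, and 58 genes exceeded 0.9.

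These 8 genes differed widely in their levels. SSR3, a subunit of the translocon-associated complex, stood at 284 CPM in ZR-75-1 DMSO, 486 with abemaciclib and 565 with palbociclib, and at 298, 321 and 317 CPM in CAMA-1. The lipocalin gene APOD went from 2.48 CPM to 15.4 and 40.5 in ZR-75-1, and BPIFB1, which encodes a secreted protein of epithelia, from 5.10 to 37.7 and 97.2. Both were almost absent from CAMA-1, at no more than 1.36 CPM in any group mean. GOLPH3, a Golgi protein gene, went from 79.7 to 110 and 123 CPM in ZR-75-1 and from 85.3 to 72.2 and 73.2 in CAMA-1. The most opposite patterns were those of RAD23B (r = -0.949), MKRN1 (-0.940), S100A14 (-0.932) and HDGFL3 (-0.932). S100A14, a calcium-binding protein gene, went from 3507 to 1868 and 1828 CPM in ZR-75-1 and from 3126 to 4016 and 4483 in CAMA-1. The 8 closest genes depended on the measure of likeness, since none of them was among the closest 8 by Spearman's rho or in ZR-75-1 alone.

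**Figure D4:**
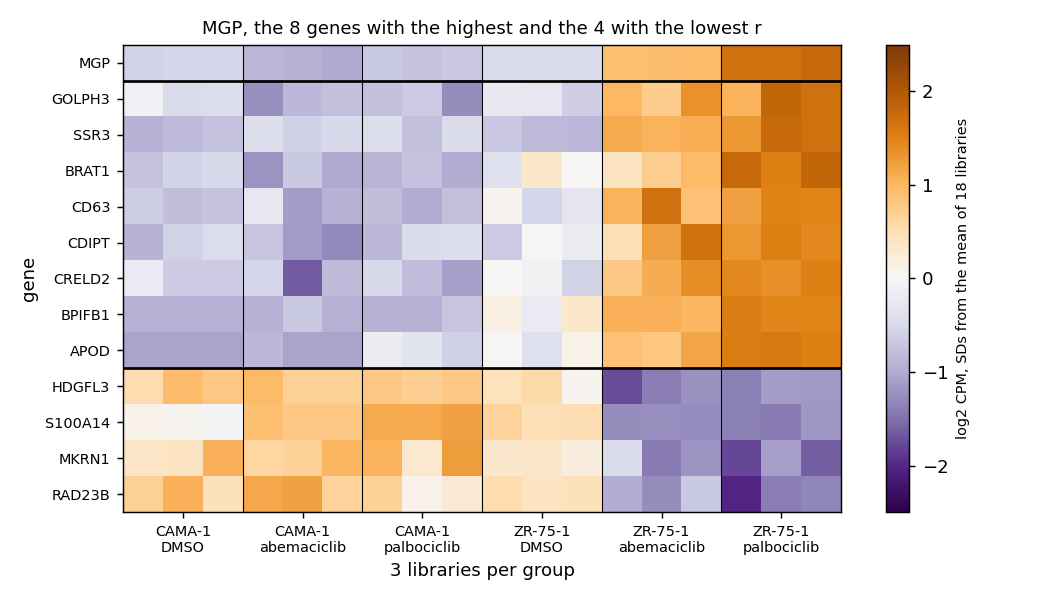
Heat map of log2 CPM, as SDs from the mean of the 18 libraries (colour), of MGP, the 8 genes with the highest and the 4 with the lowest r (rows), in the 3 libraries of each group (columns). The top rows share the high values of MGP in the ZR-75-1 drug groups, and RAD23B, MKRN1, S100A14 and HDGFL3 are lowest there.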

How the data were processed

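The 18 libraries were prepared by the authors with a Lexogen QuantSeq 3′ kit, whose strand differs between the labels and the methods. The deposited table holds raw read counts per gene, which the authors made by trimming adapters, aligning to hg38 with STAR 2.7.5b and counting on GENCODE 35 genes with featureCounts 2.0.1 (versions per the submitters' processing notes). Handling of strand, of reads with several alignments and of molecular identifiers is not given in the sources used here, so counting errors cover counting alone. All columns were matched to samples by title. MGP was found by its versioned Ensembl identifier, and coordinates come from GENCODE 44.

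Each line was fitted over its 9 libraries in edgeR 4.0.16 (R 4.3.3) with filterByExpr, TMM scaling, a quasi-likelihood F test and Benjamini-Hochberg adjustment over all genes tested (11053 in CAMA-1, 11017 in ZR-75-1). Line differences came from one fit over 18 libraries and 6 groups (11987 genes). Genes were called at an adjusted p under 0.05. SE is the absolute log2 fold change divided by the square root of F. For r, log2 CPM used a prior count of 2 and genes averaging 10 counts or more. The scripts were tested on simulated data.

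MGP and the gene lists were chosen with earlier results of these data known. Named genes are list members that were called or had a mean of at least 10 counts, genes starting within 500 kb of MGP with that mean, the 8 genes most like and the 4 least like MGP, and the 3 genes next to MGP in the order of the line difference. Alternatives were RLE and upper-quartile scaling, no filter on low counts, DESeq2 1.42.0 (the tool of the study), a replicate block, one fit over 18 libraries, and leaving out each library. Leaving out mitochondrial genes was added after seeing the data. Equal replicate numbers in the labels do not pair the samples. Some genes are not reported here and were left out of the lists and their counts.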

Additional observations from a re-analysis of the deposited data

Results flagged for a closer look

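All results below are differences between the lines, as the log2 response of ZR-75-1 less that of CAMA-1. Those of genes other than MGP passed edgeR's interaction test (adjusted p under 0.05). Responses to the drugs share the DMSO libraries of a line. Abemaciclib minus palbociclib differed by 0.725 for BMP4, 0.742 for ID1, -0.579 for PGR, -1.01 for ENSG00000261324 and -0.777 for H2AJ. These calls were lost on leaving out 4, 1, 10, 10 and 2 of 18 single libraries, in turn. PGR was also lost with upper-quartile scaling or a replicate block, and ENSG00000261324 with RLE or upper-quartile scaling or DESeq2. The gap of MGP differed by -0.86, which follows from the values that chose it and is given without a test.

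In the response to abemaciclib, genes of Gla protein maturation and Gla proteins differed by 0.955 for VKORC1, 0.93 for NQO1 and -1.36 for GAS6. BMP pathway genes differed by 1.29 for BMP4, -5.85 for BMP7, -1.47 for BMPR2, -0.54 for SMAD5, -1.85 for BAMBI, -0.88 for ID2 and -0.39 for ID3. Nuclear receptor genes differed by -1.02 for PGR, -0.46 for RARA and 1.03 for NR3C1. Neighbours of MGP differed by -2.14 for PLBD1, -2.03 for ENSG00000261324 and 0.68 for WBP11.

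In the response to palbociclib, the differences were 0.63 for GGCX, 1.03 for VKORC1, 0.60 for VKORC1L1, 1.01 for NQO1 and 2.36 for F7. BMP pathway genes differed by 0.57 for BMP4, -3.06 for BMP7, -1.09 for BMPR2, -0.37 for SMAD5, -1.88 for BAMBI, -0.59 for ID2 and -0.72 for ID3. NR3C1 differed by 0.92. Neighbours differed by -1.74 for PLBD1, -1.02 for ENSG00000261324, 1.22 for H2AJ, 0.67 for WBP11, -1.87 for ERP27 and 0.80 for RERG.

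BMP7 and F7 held few counts in ZR-75-1 (at most 1.91 and 1.44 CPM in a library), so their fitted differences depend on the prior count. For abemaciclib, the calls of GAS6, ID3, RARA and PLBD1 were lost on leaving out 15, 12, 5 and 1 of 18 single libraries, in turn. For palbociclib, those of SMAD5, PLBD1, ENSG00000261324, RERG, GGCX, BMP4, F7, VKORC1L1, BMP7 and ERP27 were lost for 10, 8, 8, 8, 6, 6, 5, 3, 1 and 1. GAS6 was also lost in each of the 6 other alternatives (adjusted p 0.053 to 0.088), and ID3 for abemaciclib with DESeq2 or without mitochondrial genes. For palbociclib, F7, BMP4 and ENSG00000261324 were lost with DESeq2, and GGCX, F7, SMAD5, PLBD1 and RERG with no filter. SMAD5 and ENSG00000261324 were also lost without mitochondrial genes, PLBD1 with a replicate block and RERG with upper-quartile scaling.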

How the results depend on the processing

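Every value given for MGP kept its direction under all 168 combinations of value and alternative. Leaving out 1 library at a time gave 2.21 to 2.26 for abemaciclib and 3.40 to 3.49 for palbociclib in ZR-75-1, -0.68 to -0.57 and -0.29 to -0.24 in CAMA-1, and -1.26 to -1.17 and -0.42 to -0.31 for abemaciclib minus palbociclib in ZR-75-1 and CAMA-1 (log2). Samples with the same replicate number did not deviate together: of 18 such pairs none correlated over 0.1 (-0.0597 to 0.0139). With the replicate block, abemaciclib minus palbociclib was -1.23 in ZR-75-1 and -0.37 in CAMA-1, and 19, 18 and 1 listed genes were called in CAMA-1 (18, 18 and 1 without it) and 16, 9 and 7 in ZR-75-1, as without it.

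Some counts of listed genes were less stable. Between the drugs in CAMA-1 the count was 1, and it was 3 with no filter on low counts, 2 without mitochondrial genes and 1 to 4 on leaving out 1 library, with 2 without DMSO replicate 1 or palbociclib replicate 3, 3 without DMSO replicate 2 and 4 without DMSO replicate 3. Between the drugs in ZR-75-1 it was 7, and 4 to 8 on leaving out 1 library, with 4 without palbociclib replicate 2. For abemaciclib against DMSO in ZR-75-1, 16 listed genes were called, and 10 to 16 on leaving out 1 library, with 10 without abemaciclib replicate 2. The cause was not tested. Of the 8 genes most like MGP, 0 were among the 8 closest by Spearman's rho, 0 by r in the 9 libraries of ZR-75-1, and 5 by r of log2 CPM without TMM scaling. Genes removed by the filter on low counts were not tested at this depth.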
